A study of Mus musculus with 12 samples.

Results

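Proteasome subunit genes were examined in the read counts of 12 libraries of mouse inguinal white adipose tissue (iWAT). They were the 49 genes, of 23420 in the count table, whose symbol begins with Psm, then a letter from a to g and a digit, with pseudogene and antisense symbols left out. By role they were split into 8 genes of the 20S core's α rings, 8 of its β rings, 3 immunoproteasome subunits, 6 ATPases and 11 non-ATPases of the 19S regulator, 5 activators or inhibitors, 7 assembly chaperones, and Psmc3ip, which shares the prefix but encodes no subunit. Each of 4 groups held 3 libraries from male C57BL/6 mice of 10 weeks. The TN mice were kept at 30 °C for 1 week, and the cold mice were kept at 4 to 6 °C for 3 days. Temperature and length of stay thus differed together, and their effects cannot be told apart. All mice carried floxed HIF2a (loxP/loxP, the gene Epas1). Those named WT had no Cre, and those named HIF2α AKO also had Adipoq-Cre, which acts in adipocytes and leaves the gene in the other cells of the depot. Cre and the deletion always occurred together, so an effect of either cannot be told apart from that of the other.

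The 20S proteasome is a barrel of stacked rings of α and β subunits, whose β rings hold the proteolytic sites. The 19S regulator recognises ubiquitin chains, removes them, and unfolds the substrate with a ring of ATPases. Psmb6, Psmb5 and Psmb7 encode the constitutive catalytic subunits. In the immunoproteasome, which is induced by interferon and is abundant in immune cells, Psmb9, Psmb8 and Psmb10 take their places and change the peptides made for MHC class I. Transcription of the constitutive genes is known to be raised by the factor NFE2L1, which binds antioxidant response elements, and proteasome activity is known to support thermogenic fat. HIFα proteins are themselves degraded by the proteasome when oxygen is sufficient.

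Promoter sequences from RefSeq on GRCm38.p6, 250 bases before and 50 after each start site, were found for 41 of the 49 genes and gave 44 promoters. They were searched on both strands for 3 motifs, and matches of different motifs did not overlap: the antioxidant response element (TGACNNNGC), the CCAAT box (CCAAT) and an interferon-stimulated response element (GAAA, any 2 bases, GAAA). The first motif stood in 13.6% of the members' promoters against 12.4% of 32851 promoters in the whole reference, the second in 34.1% against 37.4%, and the third in 11.4%, which is 5 promoters, against 3.44%. These 5 were the promoters of Psmd4, Psmd9, Psmb3, Psmg4 and Psme1, and 0 of 3 immunoproteasome promoters had the third motif. The promoters of 4 catalytic subunits are shown because the cold response described here set constitutive and immune subunits apart. Capitals mark an antioxidant response element in Psmb5 and Psmb6 and a CCAAT box, on the opposite strand, in Psmb9.
Psmb5 promoter, chr14:54617946-54618245, minus strand: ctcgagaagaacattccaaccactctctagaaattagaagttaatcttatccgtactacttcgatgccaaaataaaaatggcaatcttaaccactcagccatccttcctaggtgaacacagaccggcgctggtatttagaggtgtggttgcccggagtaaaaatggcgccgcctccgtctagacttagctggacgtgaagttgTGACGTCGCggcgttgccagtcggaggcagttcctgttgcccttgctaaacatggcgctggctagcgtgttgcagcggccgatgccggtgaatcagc
Psmb6 promoter, chr11:70525107-70525406, plus strand: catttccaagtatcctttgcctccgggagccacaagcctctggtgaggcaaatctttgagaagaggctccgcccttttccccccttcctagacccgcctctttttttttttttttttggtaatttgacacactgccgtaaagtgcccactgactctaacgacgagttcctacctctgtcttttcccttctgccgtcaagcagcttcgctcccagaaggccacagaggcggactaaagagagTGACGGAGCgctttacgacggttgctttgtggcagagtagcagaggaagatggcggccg
Psmb8 promoter, chr17:34197945-34198244, plus strand: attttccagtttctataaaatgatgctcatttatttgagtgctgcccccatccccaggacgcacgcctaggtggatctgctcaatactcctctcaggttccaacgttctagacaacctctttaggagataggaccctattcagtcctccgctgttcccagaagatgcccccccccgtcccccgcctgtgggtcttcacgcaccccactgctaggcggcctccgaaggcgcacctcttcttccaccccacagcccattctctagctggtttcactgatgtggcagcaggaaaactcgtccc
Psmb9 promoter, chr17:34187281-34187580, minus strand: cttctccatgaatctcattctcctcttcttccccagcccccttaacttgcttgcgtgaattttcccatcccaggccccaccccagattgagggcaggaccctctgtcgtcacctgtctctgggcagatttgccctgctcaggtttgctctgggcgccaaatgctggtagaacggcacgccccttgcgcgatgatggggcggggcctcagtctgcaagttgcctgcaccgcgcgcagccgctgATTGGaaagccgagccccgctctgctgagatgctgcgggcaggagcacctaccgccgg
The element began 47 bases before the start site in Psmb5 and 9 bases before it in Psmb6. It also matched once each in Psmd9, Psme4, Psmd12 and Psmc6. By class, the element stood in 2 of 5 β ring promoters, 1 of 9 non-ATPase promoters, and 1 of 6 each for ATPases, activators or inhibitors, and chaperones. It stood in 0 of 8 α ring promoters, whose tested genes all rose in cold, and in 0 of 3 immunoproteasome promoters. A link of the motif to the cold response was not tested. None of the 3 motifs was found in the printed Psmb8 window, which says only that these letters are not there. The printed Psmb8 and Psmb9 windows lie wholly inside the genes as GENCODE places them (chr17:34197721-34201454 and chr17:34181987-34187764). They therefore leave out the bases before the outermost annotated starts.

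The libraries held between 22368316 and 35204631 gene counts, of which 88900 to 137216 fell on the 49 genes. Two-sided edgeR quasi-likelihood tests were run on the 15306 genes that passed the filter on low counts, and p-values were adjusted over all of them. Of the members, 47 were tested. Psma8, an α subunit of the testis, had 0 to 11 counts per library, and Psmb11, the β subunit of the thymus, had 0 in 11 libraries and at most 1 count. A count of 0 allows up to 3 counts, for counting error only. Markers of the labelled tissue were present, with group means of Adipoq, the adipokine gene, between 1349 and 1820 CPM (counts per gene on a common library size, after TMM scaling), and Ucp1, the uncoupling protein of thermogenic fat, at 2638 ± 752 CPM (SD, n = 3) in cold WT against 0.432 ± 0.223 CPM (SD, n = 3) in TN WT. Markers set 3 libraries apart. Epithelial markers summed to 278 CPM in TN WT replicate 3 and to at most 12.1 CPM elsewhere, while skeletal muscle markers summed to 1686 CPM in TN HIF2α AKO replicate 2, to 1387 CPM in cold HIF2α AKO replicate 1 and to at most 116 CPM in the other libraries.

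Epas1 was the check of the genotype labels. It stood at 373, 278 and 430 CPM in TN WT, at 289, 394 and 360 CPM in TN HIF2α AKO, at 576, 562 and 743 CPM in cold WT and at 986, 743 and 749 CPM in cold HIF2α AKO. The 3 cold libraries labelled HIF2α AKO were thus not below the cold WT libraries but above them, if barely (743.2 against 742.8 CPM at the closest). The log2 difference in cold was 0.40 (SE 0.20, edgeR unadjusted p = 0.0694). The study reports that Hif2a mRNA was lower in adipose tissue of its knockout mice by RT-qPCR. Counts over the whole gene, in a tissue whose other cells keep it, do not show whether the floxed exon was lost, and genotypes are given as labelled.

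The proteasome genes moved between the TN and cold groups. Over both genotypes (6 cold against 6 TN libraries), 36 of the 47 tested members rose, against 24.8% of all tested genes, and 2 fell, against 24% of all tested genes. The median log2 fold change was 0.37 over the members and -0.05 over all tested genes. The risers took in all 7 tested α subunits, all 7 tested constitutive β subunits, all 6 ATPases and all 11 non-ATPase subunits of the regulator, whereas both genes that fell, Psmb8 and Psmb9, encode immunoproteasome subunits. In 31 members every cold library lay above every TN library, against 16% of all tested genes, and in 0 every cold library lay below, against 8.53%.

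This count depended on the scaling of the libraries. TMM factors were 1.02 to 1.20 in TN and 0.829 to 0.991 in cold libraries, and with library size as the only scaling the median of all genes moved by -0.28 (log2). On that scale 18 members rose and 6 fell, beside 13.7% of all tested genes that rose, with 2102 genes higher and 7653 lower in place of 3798 and 3669. In the core, 4 of 7 α and 5 of 7 constitutive β subunits rose on that scale. In the regulator, 1 of 6 ATPases and 7 of 11 non-ATPases did. The median of the members lay 0.42 above that of all genes under both scalings. A change of scaling moves all genes nearly alike, so this distance could hardly change and is no check. As a plain share of gene counts, the members took 0.386 to 0.42% of the gene counts in TN libraries and 0.422 to 0.437% in cold libraries, and these ranges did not overlap. Leaving out together the 3 libraries that markers set apart, a choice made after seeing the data, left 36 members higher and 1 lower.

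**Figure D1:**
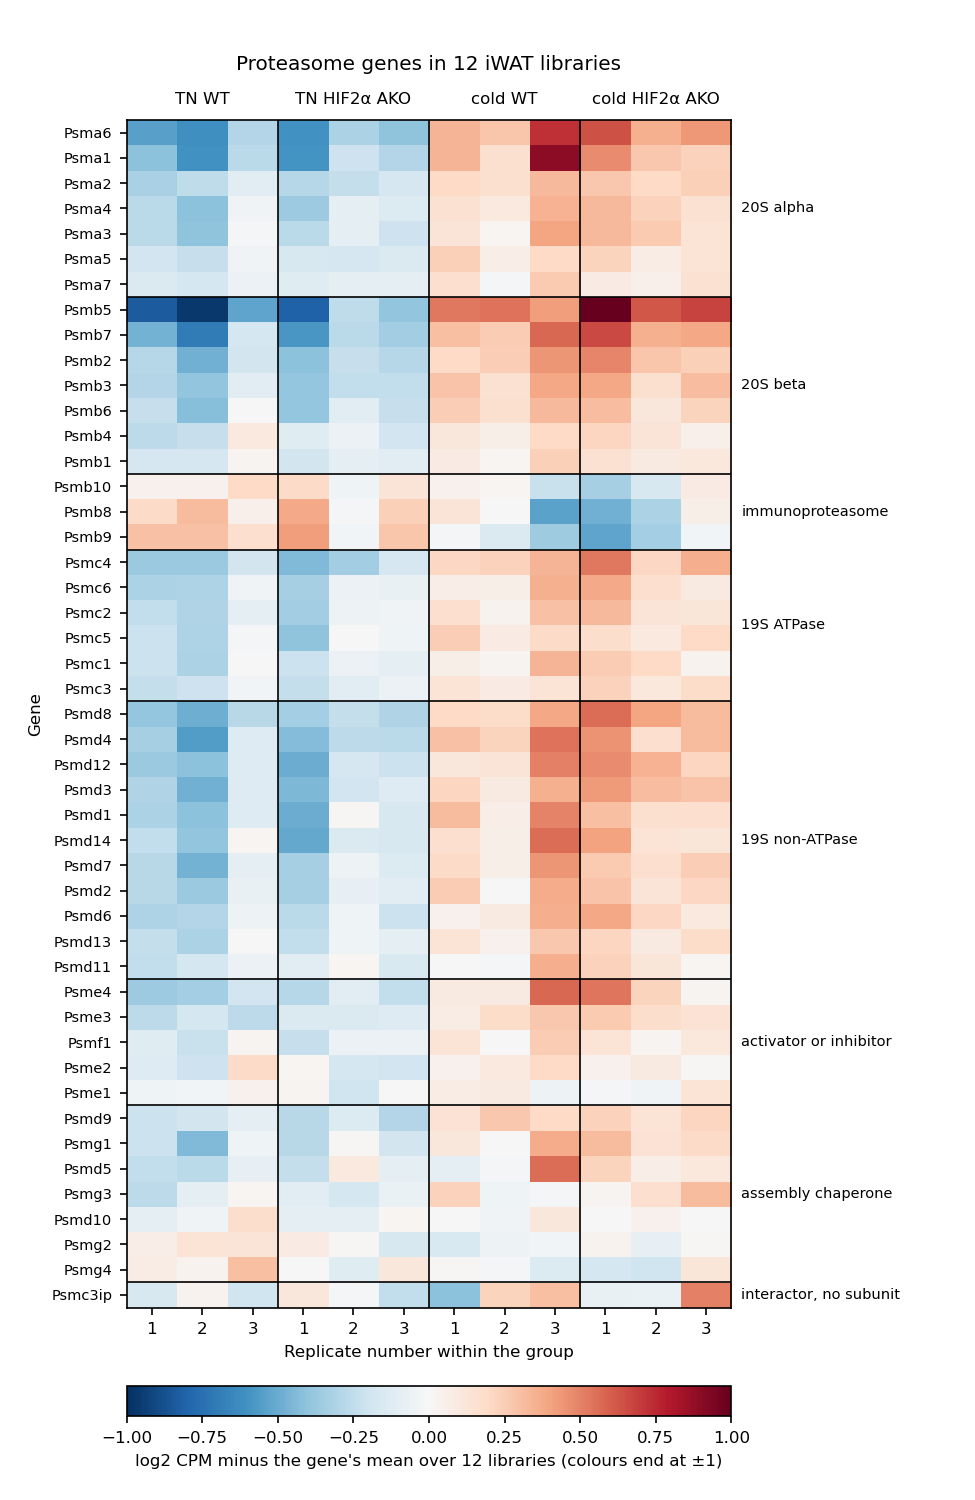
Each row is a tested proteasome gene, grouped by role, and each column a library, grouped by condition and numbered by replicate. The colour gives the log2 CPM minus the gene's mean over the 12 libraries, red for higher, with colours ending at 1 and -1. The 20S and 19S rows are mostly blue in TN and red in cold, and the rows of Psmb8 and Psmb9 run the other way.

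Among the α subunits, which form the outer rings and gate the barrel, Psma6 and Psma1 changed most. Psma6 stood at 82.3, 78.3 and 97.4 CPM in TN WT, at 78.4, 95.9 and 90.5 CPM in TN HIF2α AKO, at 151, 145 and 198 CPM in cold WT and at 186, 153 and 161 CPM in cold HIF2α AKO. All 6 cold libraries exceeded all TN libraries, and the rise was 1.90-fold (log2 fold change 0.93, SE 0.10, adjusted p = 6.7e-05). Psma1 stood at 93.5, 81.6 and 103 CPM in TN WT, at 81.8, 108 and 101 CPM in TN HIF2α AKO, at 157, 139 and 230.1 CPM in cold WT and at 172, 149.6 and 146 CPM in cold HIF2α AKO. Cold WT replicate 3 was the highest of these libraries, and the rise was 1.74-fold (log2 fold change 0.80, SE 0.13, adjusted p = 0.00075). The smallest rise in the class was that of Psma7. Psma7 stood at 104, 102 and 110.0 CPM in TN WT, at 106, 107 and 108 CPM in TN HIF2α AKO, at 129, 113 and 138 CPM in cold WT and at 122, 119 and 128 CPM in cold HIF2α AKO. Its cold libraries all stood above its TN libraries by TMM scaling (log2 fold change 0.23, SE 0.06, adjusted p = 0.0091), but its log2 fold change was -0.05 with library size only. Psma2, Psma3, Psma4 and Psma5 rose by 0.31 to 0.46 on the log2 scale.

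Psmb5, which encodes the chymotrypsin-like catalytic subunit β5, rose more than any other tested member. The gene lies at chr14:54614119-54618022 on the minus strand of GRCm38 (GENCODE), and its exons share 109 bases with Mir686 on the same strand. Psmb5 stood at 21.0, 19.2 and 25.9 CPM in TN WT, at 21.4, 31.4 and 28.4 CPM in TN HIF2α AKO, at 54.0, 54.8 and 50.2 CPM in cold WT and at 74.9, 57.7 and 60.1 CPM in cold HIF2α AKO. The lowest cold library thus stood above the highest TN library, and the rise was 2.39-fold (95% confidence interval 2.01 to 2.83, log2 fold change 1.26, SE 0.11, adjusted p = 2.1e-05). It was 2.40-fold in WT and 2.37-fold in HIF2α AKO. By p-value it ranked 162 among the 15306 tested genes. With library size only, its log2 fold change was 0.98 (SE 0.10, adjusted p = 3.29e-05).

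The partners of Psmb5 in catalysis rose less. Psmb7 stood at 82.6, 70.5 and 101 CPM in TN WT, at 76.7, 95.2 and 90.2 CPM in TN HIF2α AKO, at 141, 137 and 171 CPM in cold WT and at 181, 147 and 149.8 CPM in cold HIF2α AKO. Psmb7, the trypsin-like subunit β2, rose 1.79-fold (log2 fold change 0.84, SE 0.11, adjusted p = 0.00017), with all cold above all TN libraries; its exons overlap those of Nek6 on the opposite strand by 405 bases. Psmb6 stood at 83.7, 73.2 and 98.2 CPM in TN WT, at 75.1, 90.9 and 83.6 CPM in TN HIF2α AKO, at 116, 109 and 123 CPM in cold WT and at 121, 106 and 114 CPM in cold HIF2α AKO. Psmb6, the caspase-like subunit β1, rose 1.37-fold (log2 fold change 0.45, SE 0.08, adjusted p = 0.0016), again without overlap. The structural subunits Psmb2, Psmb3 and Psmb4 rose by 0.63, 0.56 and 0.25 (log2). Psmb1 stood at 101, 101 and 115 CPM in TN WT, at 99.9, 106 and 105 CPM in TN HIF2α AKO, at 119.9, 115 and 133 CPM in cold WT and at 126, 120.5 and 122 CPM in cold HIF2α AKO. Psmb1 changed least in its class, with cold WT replicate 2 and TN WT replicate 3 at nearly the same value (log2 fold change 0.23, SE 0.06, adjusted p = 0.01), and its log2 fold change was -0.05 with library size only.

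Per kilobase of exon, which allows levels of different genes to be compared, the 14 tested core subunits spanned 4.52-fold in TN WT, from Psmb5 at 24.5 ± 3.87 CPM per kilobase (SD, n = 3) to Psmb3 at 111 ± 11.3. Psma2 at 28.7 ± 2.19 and Psma3 at 29.4 ± 4.11 stood next to Psmb5 with overlapping libraries, and Psmb1 at 30.8 ± 2.44 followed without overlap with Psmb5. In cold WT, Psmb5 was the fifth lowest at 59.0 ± 2.71 CPM per kilobase, between Psma5 at 51.8 ± 3.14 and Psmb4 at 86.5 ± 4.31, and Psmb1 was the lowest at 35.8 ± 2.79. Its place was also the fifth lowest in cold HIF2α AKO and the third lowest in TN HIF2α AKO. Psmb3 had the highest level of the core in every group. The lengths merge the exons of all annotated isoforms, 3427 bases for Psmb1 and 899 for Psmb5, and the order of levels depends on them. Psmb5 shares 109 of these bases with Mir686, Psmb7 405 with Nek6 and Psma4 114 with AY074887. Reads there may be missing or misplaced, so the levels and places of these genes are less certain.

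The ATPases Psmc1 to Psmc6 form the unfolding ring at the base of the 19S regulator. Psmc4 stood at 72.7, 72.7 and 82.9 CPM in TN WT, at 69.2, 73.8 and 83.5 CPM in TN HIF2α AKO, at 109, 110.3 and 119 CPM in cold WT and at 135, 109 and 121 CPM in cold HIF2α AKO. Psmc4 rose 1.54-fold without overlap (log2 fold change 0.63, SE 0.07, adjusted p = 0.00012). Psmc6 stood at 54.0, 54.1 and 65.6 CPM in TN WT, at 53.2, 64.5 and 63.9 CPM in TN HIF2α AKO, at 70.2, 69.9 and 85.7 CPM in cold WT and at 87.5, 75.2 and 71.5 CPM in cold HIF2α AKO. Psmc6 followed at 1.29-fold (log2 fold change 0.37, SE 0.09, adjusted p = 0.0068), a rise that passed the threshold over both genotypes but in neither alone, with adjusted p of 0.054 in WT and 0.052 in HIF2α AKO, and that missed it with library size only (0.09, adjusted p = 0.249). Psmc3 stood at 108, 111 and 126 CPM in TN WT, at 108, 118 and 123 CPM in TN HIF2α AKO, at 140.5, 136 and 140.3 CPM in cold WT and at 150.1, 137 and 145 CPM in cold HIF2α AKO. Psmc3 changed least of the 6 (log2 fold change 0.29, SE 0.06, adjusted p = 0.0034), also with no overlap; its exons overlap those of Slc39a13 on the opposite strand by 97 bases, and with library size only its log2 fold change was 0.01 over both genotypes (adjusted p = 0.911) and -0.02 in WT. Psmc1, Psmc2 and Psmc5 rose by 0.31, 0.35 and 0.32 with TMM. With library size only, Psmc4 was the only ATPase that passed the test as higher.

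Of the non-ATPases, Psmd8, a lid subunit, and Psmd4, a ubiquitin receptor, rose most. Psmd8 stood at 96.3, 89.8 and 104 CPM in TN WT, at 100, 107 and 102 CPM in TN HIF2α AKO, at 145, 143 and 165 CPM in cold WT and at 186, 166 and 157 CPM in cold HIF2α AKO. Its lowest cold library was well above its highest TN library (log2 fold change 0.68, SE 0.07, adjusted p = 4.1e-05). Psmd4 stood at 122, 104 and 140.0 CPM in TN WT, at 113, 128 and 127 CPM in TN HIF2α AKO, at 188, 179 and 223 CPM in cold WT and at 209, 172 and 190.5 CPM in cold HIF2α AKO. The gap between TN and cold was narrower than for Psmd8 but again without overlap (log2 fold change 0.66, SE 0.09, adjusted p = 0.00031). Psmd11 stood at 56.2, 58.8 and 63.8 CPM in TN WT, at 61.8, 67.5 and 59.7 CPM in TN HIF2α AKO, at 66.7, 65.7 and 85.7 CPM in cold WT and at 78.2, 72.5 and 67.6 CPM in cold HIF2α AKO. Psmd11 had the smallest rise (log2 fold change 0.25, SE 0.08, adjusted p = 0.025), its highest TN library lay above its lowest cold libraries, and with library size only its log2 fold change was -0.04. Its adjusted p was 0.053 to 0.062 when TN WT replicate 1 or 2, TN HIF2α AKO replicate 1 or 3 or cold HIF2α AKO replicate 1 was left out. The other 8 rose by 0.31 to 0.60. They included Psmd14, the deubiquitinase of the lid, at 0.48, and Psmd1 and Psmd2, the large scaffold subunits, at 0.50 and 0.42.

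**Figure D2:**
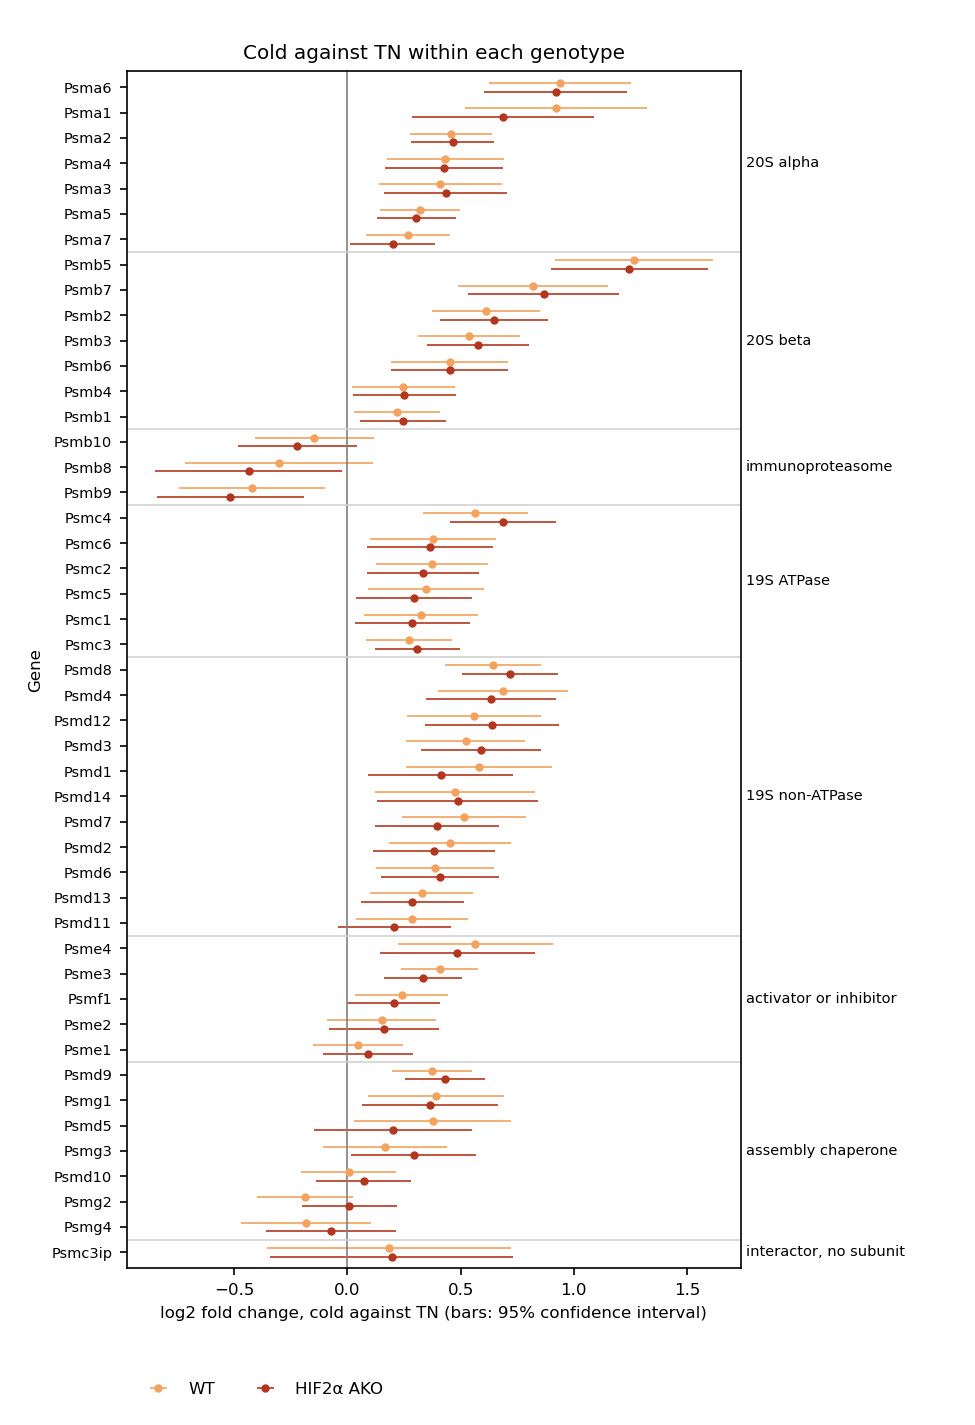
Points give the log2 fold change of cold against TN for each tested gene in WT (orange) and HIF2α AKO (red), 3 against 3 libraries each, with 95% confidence intervals from the edgeR fit, grouped by role. Psmb5 lies farthest to the right in both genotypes at 1.27 and 1.24, the 20S and 19S subunits lie right of 0, and Psmb8, Psmb9 and Psmb10 lie left of 0.

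Not all activators passed the test, and their changes were not tested against one another. Psme4 and Psme3 encode the nuclear activators PA200 and PA28γ. Psme4 stood at 88.6, 90.0 and 99.5 CPM in TN WT, at 93.5, 106 and 96.1 CPM in TN HIF2α AKO, at 121, 121 and 169 CPM in cold WT and at 165, 133 and 116 CPM in cold HIF2α AKO. Psme4 rose 1.44-fold (log2 fold change 0.53, SE 0.11, adjusted p = 0.0034). Psme3 stood at 95.3, 101 and 95.4 CPM in TN WT, at 104, 103 and 105 CPM in TN HIF2α AKO, at 120.0, 129 and 138 CPM in cold WT and at 137, 129 and 126 CPM in cold HIF2α AKO. Psme3 rose 1.29-fold (log2 fold change 0.37, SE 0.05, adjusted p = 0.00046), and neither gene had overlapping conditions. With library size only the log2 fold change of Psme3 was 0.08 (adjusted p = 0.294). Psme1 and Psme2, the interferon-induced PA28α and PA28β that pair with the immunoproteasome, did not pass the test. Psme1 stood at 160.1, 162 and 169 CPM in TN WT, at 168, 144 and 164 CPM in TN HIF2α AKO, at 173, 175 and 159 CPM in cold WT and at 164, 161 and 181 CPM in cold HIF2α AKO. Psme2 stood at 105, 99.5 and 131 CPM in TN WT, at 116, 102 and 101 CPM in TN HIF2α AKO, at 118, 122 and 132 CPM in cold WT and at 118, 122 and 116 CPM in cold HIF2α AKO. The TN and cold values of both genes overlapped, and the exons of Psme1 share 7 bases with Emc9 on the opposite strand. Their log2 fold changes were 0.07 (SE 0.06, adjusted p = 0.39) and 0.16 (SE 0.08, adjusted p = 0.12) with TMM, and -0.21 and -0.13 with library size only. That of Psme2 was 0.22 (adjusted p = 0.0188) without TN WT replicate 3 and 0.20 (adjusted p = 0.0126) by voom with quality weights. Psmf1 stood at 32.2, 30.1 and 35.7 CPM in TN WT, at 29.9, 33.6 and 33.6 CPM in TN HIF2α AKO, at 38.6, 35.2 and 41.9 CPM in cold WT and at 38.5, 35.7 and 37.7 CPM in cold HIF2α AKO. Psmf1, the inhibitor PI31, rose slightly with TMM (log2 fold change 0.22, SE 0.07, adjusted p = 0.018), but cold WT replicate 2 lay below TN WT replicate 3, and with library size only its log2 fold change was -0.06.

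Among the assembly chaperones 2 of 7 rose. Psmd9 stood at 19.1, 19.5 and 20.8 CPM in TN WT, at 18.4, 20.2 and 18.1 CPM in TN HIF2α AKO, at 24.6, 26.8 and 25.5 CPM in cold WT and at 26.0, 24.5 and 25.8 CPM in cold HIF2α AKO. Psmd9, which helps to form the base, rose 1.32-fold without overlap (log2 fold change 0.40, SE 0.06, adjusted p = 0.00034). Psmg1 stood at 14.0, 12.0 and 15.8 CPM in TN WT, at 13.4, 16.4 and 14.3 CPM in TN HIF2α AKO, at 17.5, 16.1 and 21.0 CPM in cold WT and at 20.2, 18.0 and 18.6 CPM in cold HIF2α AKO. Psmg1, which with Psmg2 starts the α ring, rose 1.30-fold (log2 fold change 0.38, SE 0.10, adjusted p = 0.0091), although cold WT replicate 2 lay below TN HIF2α AKO replicate 2. Psmg4 stood at 10.5, 10.2 and 12.3 CPM in TN WT, at 9.97, 9.20 and 10.8 CPM in TN HIF2α AKO, at 10.1, 9.95 and 9.13 CPM in cold WT and at 8.86, 8.72 and 10.9 CPM in cold HIF2α AKO. Psmg4 was the lowest of its class in fold change, and its groups overlapped (log2 fold change -0.13, SE 0.09, adjusted p = 0.26). Psmd5, Psmd10, Psmg2 and Psmg3 also missed the threshold, with log2 fold changes from -0.09 to 0.29. With library size only, no chaperone passed the test as higher (Psmd9 0.12, adjusted p = 0.153, and Psmg1 0.09, adjusted p = 0.257) and 3 fell, which were Psmg4, Psmg2 and Psmd10. Psmc3ip, which acts in recombination, had a log2 fold change of 0.19 (SE 0.17, adjusted p = 0.38).

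Of the immunoproteasome subunits, Psmb9 and Psmb8 fell in cold and Psmb10 did not pass the test. Psmb9 stood at 80.8, 81.1 and 74.1 CPM in TN WT, at 88.1, 64.9 and 80.1 CPM in TN HIF2α AKO, at 65.1, 59.7 and 51.6 CPM in cold WT and at 45.7, 52.3 and 64.8 CPM in cold HIF2α AKO. Psmb9 fell by 0.47 on the log2 scale (SE 0.10, adjusted p = 0.0046), with a single overlap between cold WT replicate 1 and TN HIF2α AKO replicate 2. The gene lies at chr17:34181987-34187764, and its exons overlap those of Tap1 on the opposite strand by 212 bases. As the strand setting of the counting is not given in the sources used here, reads there may be missing from both genes or mixed between them.

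Psmb8 stood at 183, 199 and 166 CPM in TN WT, at 208, 158 and 189 CPM in TN HIF2α AKO, at 175, 159.7 and 110.4 CPM in cold WT and at 114, 128 and 167 CPM in cold HIF2α AKO. Psmb8 (chr17:34197721-34201454) fell by 0.37 (SE 0.13, adjusted p = 0.040), and the values overlapped because cold WT replicates 1 and 2 and cold HIF2α AKO replicate 3 stayed at the level of TN libraries. The adjusted p of Psmb8 ranged from 0.018 to 0.094 when single libraries were left out and was above 0.05 without TN WT replicate 1 or 2, TN HIF2α AKO replicate 1 or 3, cold WT replicate 3 or cold HIF2α AKO replicate 1 or 2. It was 0.058 without the 3 libraries set apart by markers, while that of Psmb9 stayed between 0.0023 and 0.013 without single libraries. Psmb10 stood at 65.8, 66.1 and 73.5 CPM in TN WT, at 73.3, 62.1 and 70.2 CPM in TN HIF2α AKO, at 66.0, 64.8 and 54.8 CPM in cold WT and at 50.9, 57.4 and 68.0 CPM in cold HIF2α AKO. Psmb10 did not pass the test with a log2 fold change of -0.18 (SE 0.08, adjusted p = 0.091), which became -0.24 (adjusted p = 0.0282) without cold HIF2α AKO replicate 3. With library size only, all 3 fell, by 0.75, 0.65 and 0.46 (log2) for Psmb9, Psmb8 and Psmb10.

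**Figure D3:**
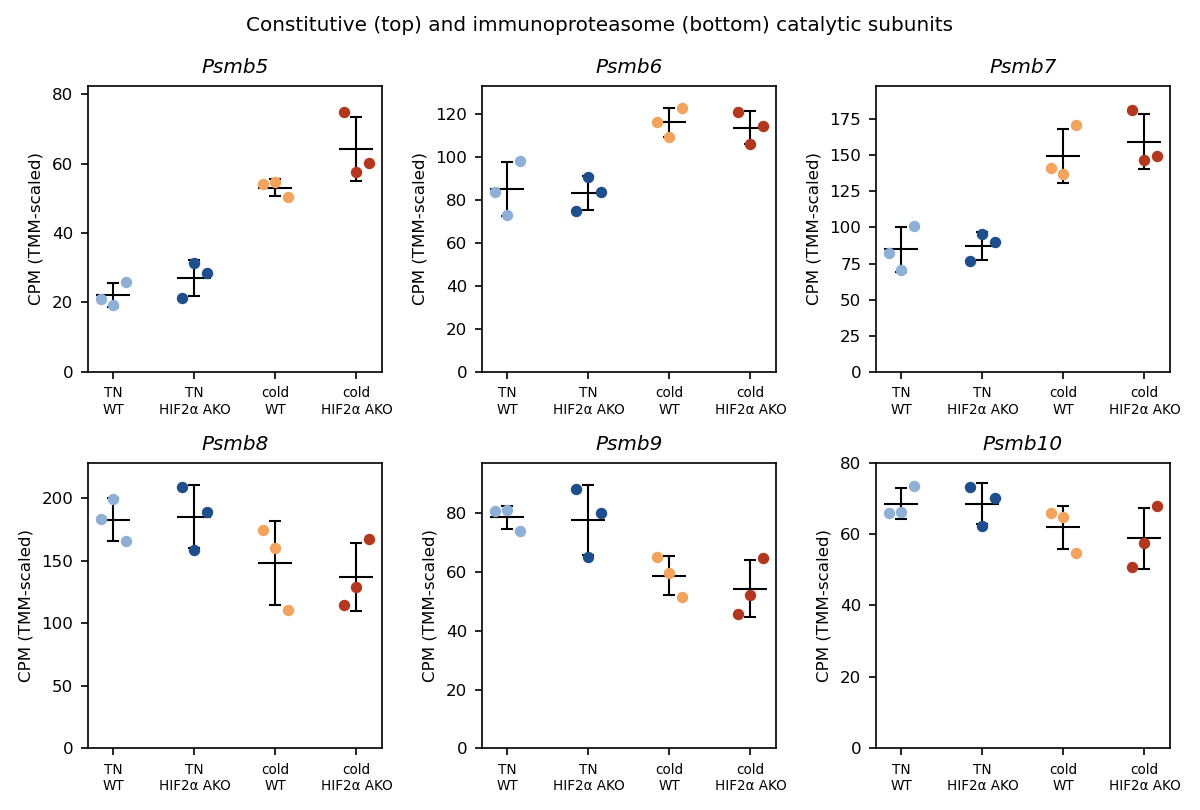
CPM after TMM scaling of the 3 constitutive catalytic subunits (top) and the 3 immunoproteasome subunits (bottom) in each group. Points are libraries, horizontal bars the group mean and whiskers 1 SD (n = 3). The cold libraries of Psmb5, Psmb6 and Psmb7 lie above all TN libraries, while those of Psmb8, Psmb9 and Psmb10 lie lower on average and overlap with TN.

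The ratio of an immune subunit to the constitutive one it replaces does not depend on the scaling of a library. Psmb8 to Psmb5, in reads per kilobase of exon, was 4.81, 5.74 and 3.52 in TN WT, 5.38, 2.78 and 3.66 in TN HIF2α AKO, 1.79, 1.61 and 1.21 in cold WT and 0.845, 1.23 and 1.54 in cold HIF2α AKO. All 6 cold values lay below all 6 TN values. Reads in the bases that Psmb5 shares with Mir686 may be missing, which bears on the level of this ratio. The log2 ratio fell by 1.65, to 0.318 of its TN value (two-sided exact permutation test within genotype over 400 arrangements, p = 0.005, the smallest it can give, and 0.005 adjusted over 3 ratios). Psmb9 to Psmb6 ran from 0.422 to 0.692 in TN and from 0.223 to 0.335 in cold, and its log2 value fell by 0.93 (exact permutation p = 0.005, adjusted 0.005). Psmb10 to Psmb7 ran from 0.577 to 0.846 in TN and from 0.248 to 0.419 in cold, and its log2 value fell by 1.04 (exact permutation p = 0.005, adjusted 0.005). A drop of a ratio does not show that the immune subunit itself fell. For Psmb8 to Psmb5 and Psmb10 to Psmb7, the rise of the constitutive subunit was the larger part, and Psmb10 itself did not pass the test with TMM. Within WT or HIF2α AKO alone each drop was without overlap, and the exact permutation test of 3 against 3 gave p = 0.1, the smallest it can give.

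**Figure D4:**
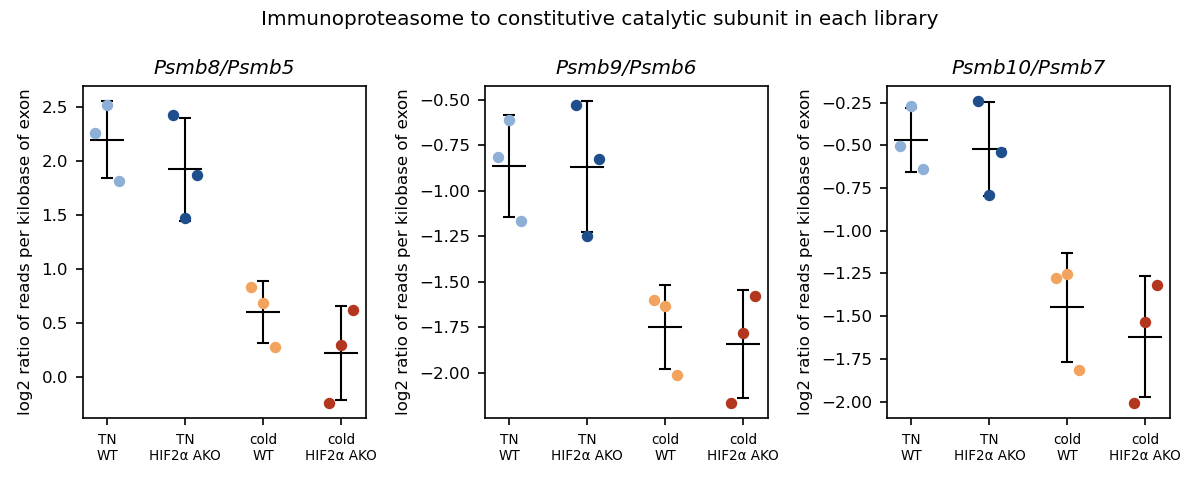
log2 ratio of reads per kilobase of exon for Psmb8 to Psmb5, Psmb9 to Psmb6 and Psmb10 to Psmb7 in each library (points), with the group mean (bar) and 1 SD (whiskers, n = 3). In each panel all 6 cold libraries lie below all 6 TN libraries, and the genotypes overlap within a temperature.

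Markers of lymphocytes moved with Psmb8 and Psmb9. Of 12 lymphocyte markers 10 fell in cold over both genotypes, against 24% of all tested genes. Their median log2 fold change was -0.57, and their summed level was 1226 to 2019 CPM in TN and 738 to 1309 CPM in cold libraries. These ranges overlapped. Within WT alone 1 of the 12 fell, against 5.68% of all tested genes, with a median of -0.61. Within HIF2α AKO alone 2 fell, against 11.5%, with a median of -0.59. Of 11 macrophage markers 3 fell, a share near that of all genes, and their sum was 1735 to 2990 CPM in TN and 1458 to 2862 CPM in cold. In WT alone 0 of the 11 passed the test (median log2 fold change -0.04), and in HIF2α AKO 3 fell (median -0.67). No marker of either list was at 0 in any library. Thermogenic adipocyte markers moved with the constitutive genes, as 8 of 8 rose. Of 8 white adipocyte markers 5 rose and the other 3 did not pass the test. Sums of thermogenic markers were 28.4 to 90.6 CPM in TN and 3350 to 8582 CPM in cold. Sums of white markers were 11460 to 27890 CPM in TN and 22770 to 42860 CPM in cold. Among white markers, mean Fabp4 went from 3782 to 12550 CPM in WT and from 4248 to 12740 CPM in HIF2α AKO. Mean Cfd went from 9676 to 10640 CPM in WT and from 11230 to 8525 CPM in HIF2α AKO. Mean Adipoq went from 1349 to 1820 CPM in WT and from 1582 to 1571 CPM in HIF2α AKO. Of 8 endothelial markers 3 rose, against 24.8% of all tested genes, and of 8 epithelial markers 1 fell, against 24%. The lowest adjusted p of the 12 muscle markers was 0.215 in edgeR. The part of these markers in the change of the proteasome genes was not tested, and in bulk tissue fewer cells of a type and less RNA per cell cannot be told apart.

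Each genotype alone gave the same picture with fewer calls. In WT, 27 of 47 members rose in cold, against 15.6% of all tested genes, and 0 fell, against 5.68%. In edgeR 1 member, Psmb9, was lower at an unadjusted p under 0.05, against 16.3% of all tested genes, and DESeq2 and voom each called 1 lower. In HIF2α AKO, 25 rose, against 15.6% of all genes, and 1 fell, Psmb9, against 11.5%. The risers were 24 genes in both genotypes, Psma7, Psmd1 and Psmd13 in WT, and Psmd14 in HIF2α AKO. The conditions did not overlap, with cold higher, for 33 members in WT and 37 in HIF2α AKO, against 22.7% and 24.9% of all tested genes. They did not overlap with cold lower for 3 members in WT (Psmb9, Psmg2 and Psmg4), against 19.3%, and for 1 in HIF2α AKO (Psmb9), against 25.6%. Across the 47 members the log2 fold changes of the genotypes, which share no library, had a Pearson r of 0.965 and a Spearman rho of 0.954, given as a description because genes are not independent, and 46 had the same sign. Over all 15306 tested genes r was 0.826.

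These counts leaned on single libraries. In WT, 12 members rose without TN WT replicate 2 or without cold WT replicate 3, 13 without TN WT replicate 1, and 15 with only the 2 groups compared in the fit. In HIF2α AKO, 12 rose without cold HIF2α AKO replicate 1, 13 without TN HIF2α AKO replicate 1, 14 without TN HIF2α AKO replicate 3 and 13 without the 3 libraries set apart by markers. Over both genotypes the count stayed between 35 and 39.

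Between genotypes no proteasome gene passed the test. In cold, 0 of 47 members were higher or lower in HIF2α AKO, against 0.00653% and 0% of all tested genes, and 0 had an unadjusted p under 0.05, against 1.68% higher and 1.27% lower. At TN the counts were again 0, against 0.00653% and 0%, and 0 at an unadjusted p under 0.05, against 1.26% and 1.65%. DESeq2 and voom also called 0 members in each. The fitted log2 differences ran from -0.17 (Psma1) to 0.28 (Psmb5) in cold and from -0.14 (Psmg4) to 0.30 (Psmb5) at TN. The 95% confidence interval lay within 0.5 of 0 for 43 members in cold and for 45 at TN, and across all members the intervals reached from -0.57 to 0.62 and from -0.47 to 0.64.

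Psmb5 stood at the edge of these ranges. Its values in HIF2α AKO exceeded all WT values in cold, with a log2 difference of 0.28 (SE 0.16, edgeR unadjusted p = 0.103), and overlapped with them at TN, with 0.30 (SE 0.16, edgeR unadjusted p = 0.0856). It was the 1 member without overlap in cold, against 3.8% of genes higher and 3.73% lower. The study's thresholds (p below 0.15, log2 fold change beyond 0.2 in size) were applied here to edgeR p-values. Psmb5 was the 1 member past them in cold, against 4.74% of genes higher and 4.24% lower, and at TN, against 3.97% and 4.66%. The study itself used them with DESeq2 and for the cold comparison only. Without single libraries, the difference of Psmb5 in cold ran from 0.15 (without cold HIF2α AKO replicate 1) to 0.35 (without cold HIF2α AKO replicate 2). At TN it ran from 0.18 (without TN HIF2α AKO replicate 2) to 0.44 (without TN HIF2α AKO replicate 1). Both lowest values are below the limit of 0.2. The libraries left out for them have the highest muscle marker sums, and a part of muscle RNA in the difference was not tested. Psme3 was the 1 member without overlap at TN, against 3.69% of genes higher and 4% lower, with a log2 difference of 0.09 (SE 0.08).

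The cold response itself was compared by the interaction of genotype and temperature. In edgeR, DESeq2 and voom 0 of 47 members differed, against 0% of all tested genes in edgeR, and 0 had an unadjusted p under 0.05, against 0.987% and 1.15% in either direction. The differences ran from -0.23 (Psma1) to 0.20 (Psmg2), with intervals reaching from -0.80 to 0.77 and within 0.5 of 0 for 34 members. The ratios of immune to constitutive subunits gave exact permutation p of 0.3 to 0.7 in cold and 0.5 to 1 at TN between genotypes, where 3 against 3 cannot go below 0.1.

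**Figure D5:**
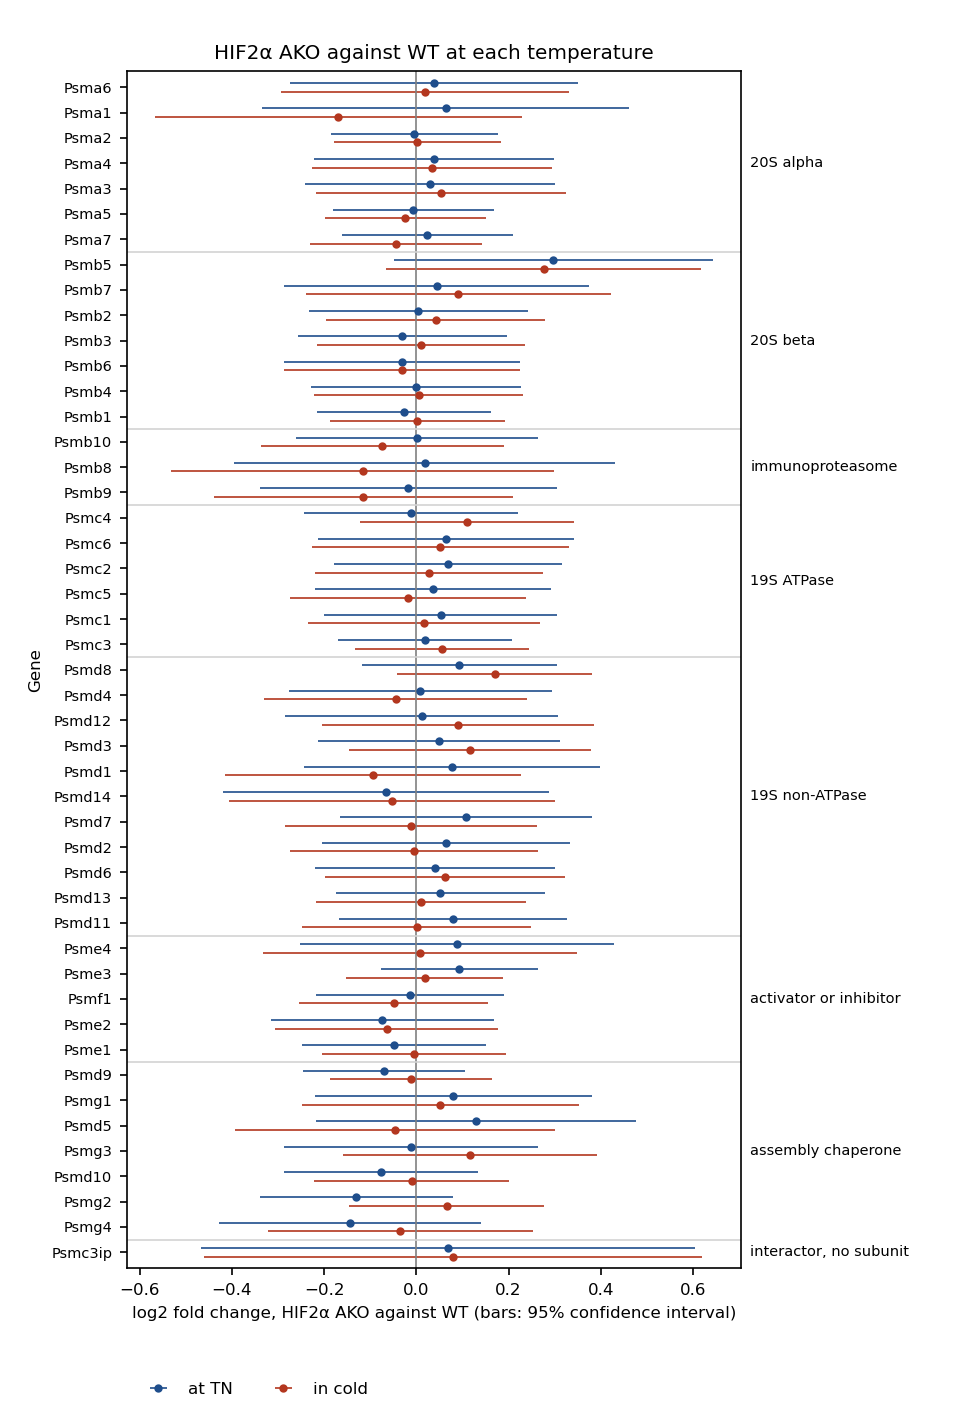
Points give the log2 fold change of HIF2α AKO against WT for each tested gene at TN (blue) and in cold (red), 3 against 3 libraries each, with 95% confidence intervals from the edgeR fit. Every interval includes 0, and Psmb5 lies farthest right at 0.30 and 0.28.

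Genes that work with the proteasome were taken from 6 lists and are given for cold against TN over both genotypes, where 24.8% of all tested genes rose and 24% fell. Of 8 regulators of proteasome genes 5 rose and the other 3 did not pass the test. Nfe2l1, which encodes the activator of proteasome genes, stood at 312, 254 and 373 CPM in TN WT, at 284, 401 and 371 CPM in TN HIF2α AKO, at 560, 562 and 712 CPM in cold WT and at 763, 660 and 586 CPM in cold HIF2α AKO. No cold library overlapped with TN, and the rise was 0.95 on the log2 scale (SE 0.13, adjusted p = 0.0003). Ddi2, the protease that releases NFE2L1 from the membrane, rose by 0.33 and Ngly1, which removes its glycans, by 0.32, and with library size only these were 0.04 and 0.03, past no threshold.

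Of 7 subunits and cofactors whose symbols lie outside the Psm series 5 rose. They included Ube3c, a ubiquitin ligase of the proteasome, by 0.65, Adrm1, a ubiquitin receptor, by 0.51 and Usp14, a deubiquitinase, by 0.43. Pomp, the maturation factor of the core, had 0.14 (SE 0.08, adjusted p = 0.17) with TMM, 0.21 (adjusted p = 0.0389) without TN WT replicate 3 and -0.14 with library size only. Of 10 ubiquitin shuttles and p97 cofactors 8 rose, among them Ubqln4 by 0.61, Nploc4 by 0.54 and Ufd1l by 0.51, and 1, Ubqln2, fell by 0.14. Of 6 ubiquitin and E1 genes 2 rose, among them Uba1 by 0.41, and 3 fell, Uba6 by 0.41, Rps27a by 0.28 and Ubb by 0.25. With library size only the rises of Uba1 and Usp14 no longer passed the test, and the falls of Rps27a, Ubb and Ubqln2 were lost in 8, 9 and 4 of 12 fits without single libraries.

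The VHL ubiquitin ligase marks HIFα for the proteasome. Of its 5 genes 4 rose, with Tceb1 by 0.58, Tceb2 by 0.48, Cul2 by 0.45 and Rbx1 by 0.38, while Vhl, which binds the substrate, fell by 0.19, a call lost in 6 of 12 fits without single libraries. Of 10 genes of MHC class I antigen processing 5 fell and the other 5 did not pass the test. Those that fell included Tap1, a subunit of the peptide transporter, by 0.59, Nlrc5, the transactivator of class I genes, by 0.53, and Tapbp and Erap1 by 0.26 and 0.24. Tap1 averaged 206 ± 13.8 CPM in TN WT, 209 ± 37.1 in TN HIF2α AKO, 147 ± 23.3 in cold WT and 129 ± 28.3 in cold HIF2α AKO (SD, n = 3), and it neighbours Psmb8 and Psmb9.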

How the data were processed

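Reads per gene were measured in 12 iWAT libraries, 3 in each of 4 groups assigned by the labels, which number the libraries without naming the mouse, so p-values measure the spread between libraries. The authors trimmed reads with Trim Galore 0.4.4, mapped them to GRCm38 with STAR 2.6.1d and counted them with HTSeq 0.13.5. The deposited values are raw counts per gene, and the table of the series equals the 12 single files. Tallies of reads outside genes (21.9 to 27% of reads, those aligned to several places included) were left out. Counts were analysed in R 4.3.3 with edgeR 4.0.16 (filterByExpr with a minimum count of 10 and total of 15, TMM, 1 quasi-likelihood fit of 4 groups, Benjamini-Hochberg limit 0.05 over 15306 genes). The common biological coefficient of variation was 0.202. log2 CPM used a prior count of 2. Scaling, filter, replicate block, single libraries, DESeq2 1.42.0 and limma 3.58.1 (voom) were alternatives. The main scripts were tested on simulated data. Replicate libraries differed beyond counting noise (chi-square per gene of at least 31.6), so none was counted as a repeat.

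The members, classes and lists were chosen with earlier results of these data known. Values per library are given for the immunoproteasome subunits, their constitutive partners, the activators and inhibitor, and in each other class for the 2 largest and the 1 smallest log2 fold change in cold over both genotypes. From each pathway list up to 3 called genes per direction are named, plus Nfe2l1 and Pomp, and any other gene was picked with its values in view. Some genes of these lists are counted but not reported here by name. Gene positions and exon lengths are from GENCODE on GRCm38, and promoters from RefSeq.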

Additional observations from a re-analysis of the deposited data

How the results depend on the processing

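The direction of the proteasome genes depended most on the scaling. With library size only, 9 members rose and 4 fell in WT, 11 and 3 in HIF2α AKO, and 18 and 6 over both genotypes. The members with a log2 fold change above 0 then went from 42 to 31 of 47 in WT and over both genotypes and from 43 to 32 in HIF2α AKO. Of the genes named by rule, those that turned negative stood in WT at -0.245 for Psme1, -0.143 for Psme2, -0.06 for Psmf1, -0.034 for Psma7, -0.083 for Psmb1, -0.023 for Psmc3, -0.021 for Psmd11 and -0.111 for Pomp. In HIF2α AKO they were -0.182, -0.112, -0.062, -0.068, -0.022, -0.062 and -0.174 for Psme1, Psme2, Psmf1, Psma7, Psmb1, Psmd11 and Pomp. Over both genotypes they were -0.213, -0.127, -0.061, -0.051, -0.052, -0.041 and -0.143 for the same genes. Psme1 in WT ran from -0.006 (without cold WT replicate 2) to 0.089. The cause was not tested.

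DESeq2 and voom each called 1 member lower in WT, and voom 2 in HIF2α AKO. With only the 2 groups compared in the fit, 15 rose in WT. The study's thresholds, applied to edgeR p-values, passed 1 member higher, Psmb5, in cold and 1 at TN. Leaving out single libraries gave 12 to 35 higher and 0 to 1 lower in WT, 12 to 29 and 0 to 2 in HIF2α AKO, and 35 to 39 and 1 to 3 over both. Without the 3 libraries set apart by markers, 32 rose and 1 fell in WT, 13 and 0 in HIF2α AKO, and 36 and 1 over both. Between genotypes and in the interaction each of these settings called 0 members at the adjusted threshold. The log2 ratio differences stayed between -1.763 and -1.525, -1.025 and -0.847, and -1.112 and -0.939 for Psmb8/Psmb5, Psmb9/Psmb6 and Psmb10/Psmb7 without single libraries.

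The replicate numbers did not pair the samples, as 5 of 18 same-numbered pairs of libraries correlated above 0.1 (range -0.43 to 0.39). With the replicate block, 1 member fell over both genotypes (Psmb8 had an adjusted p of 0.067) and no other count of members moved by over 1.5 times. With 3 libraries a group, 95% intervals of genotype differences were 0.26 wide on either side at the median.
Of the values of single named genes under all settings, 2469 kept their direction and side of the threshold, 244 lost and 77 gained a call, and 23 changed sign.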

Other observations

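The genes whose log2 CPM followed that of Psmb5 most closely over the 12 libraries were Esrra (Pearson r = 0.993), Mtx1 (0.992), Sdhb (0.991), Slc26a6 (0.991) and Dohh (0.991). The libraries form a TN and a cold cluster, so this measure of likeness mostly reflects the difference between these. Among the members, Psmd8 came closest with r = 0.973, at rank 269 of all genes.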
